A study of Mus musculus with 6 samples.

Results

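The genes of the Slit-Robo guidance system were examined in SLK-knockout and SLK wild-type mouse cells: the 3 Slit ligands, the 4 Robo receptors and the 3 srGAP proteins that act below the receptors. These are 10 of the 22180 genes tested, and each was read by 1 probe set annotated to that symbol alone. Where a gene has several such probe sets the one with the highest mean over the 6 arrays was kept, but no member had more than 1, so the signal level chose nothing here. The genes themselves were chosen by family membership, with earlier results of these data known.

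Gene expression was profiled on 3 arrays from SLK-knockout cells and 3 arrays from SLK wild-type cells. Both groups are NeuNDL-derived cells, NeuNDL being a constitutively active variant of Neu (ErbB2), a receptor tyrosine kinase, and both were untreated and grown in serum with a supplement for mammary epithelium. SLK is a Ste20-like kinase known for its part in adhesion turnover and migration. The series names passages 9, 19 and 29, but no label says which passage, clone or line an array came from, or how the knockout was made. The p-values accordingly cover only the spread among these arrays, which may be partly technical. Values are the authors' deposited signals, taken as log2, and the labels do not state how they were normalized. Array medians lay between 3.93 and 3.97, and the median gene averaged 4.39 over all arrays. The small number of arrays limits the precision of every value.

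Slits are large secreted proteins built of leucine-rich repeats and EGF-like modules, and Robos are immunoglobulin-type receptors that bind them. In axons, binding of Slit to Robo recruits srGAPs through their SH3 domain to the receptor's tail, where they inactivate small GTPases that control actin. In the mouse mammary gland Slit2 and Robo1 are known for holding the basal and luminal cell layers together and for restraining the growth of basal cells.

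The regulatory sequences shown are those of Slit2 and Robo1, the only members with a limma adjusted p under 0.05, both lower in knockout cells. They are RefSeq windows on GRCm38.p6 from 250 bases before to 50 bases after an annotated start, printed 5′ to 3′ on the gene's strand. Capitals mark any match, on either strand, to 7 motifs. These were the TATA box, searched as TATAAA, the GC box, searched as GGGCGG, the promoter element whose name is its own letters, CCAAT, the common E-box of letters CACGTG, another E-box with letters CAGGTG, the AP-1 site, searched as TGACTCA, and the core bound by SOX factors, searched as ACAAAG.
Slit2, chr5:47982905-47983204, + strand: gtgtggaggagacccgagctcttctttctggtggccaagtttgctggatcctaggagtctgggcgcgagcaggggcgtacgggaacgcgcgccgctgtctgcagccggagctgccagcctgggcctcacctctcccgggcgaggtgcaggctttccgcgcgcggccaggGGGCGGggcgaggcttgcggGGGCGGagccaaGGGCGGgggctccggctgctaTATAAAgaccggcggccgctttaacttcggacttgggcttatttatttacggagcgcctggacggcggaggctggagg
Robo1, chr16:72662899-72663198, + strand: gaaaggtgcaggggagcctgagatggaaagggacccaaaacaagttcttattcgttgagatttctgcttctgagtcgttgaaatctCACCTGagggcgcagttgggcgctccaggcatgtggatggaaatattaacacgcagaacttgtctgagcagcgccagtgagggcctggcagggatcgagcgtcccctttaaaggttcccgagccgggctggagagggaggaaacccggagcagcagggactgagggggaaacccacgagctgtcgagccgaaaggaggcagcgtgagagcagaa
The Slit2 window held 1 TATA box starting 28 bases before the start site and 3 GC boxes, starting 81, 61 and 49 bases before it, and none of these matches overlapped another. Of 32851 windows of this length 13.6% held a TATA box and 35.7% a GC box. The Robo1 window held 1 match, the E-box CAGGTG read on the opposite strand, starting 164 bases before the start, and 20.2% of windows held that E-box. No motif was present in both windows. The CCAAT element, the E-box CACGTG, the AP-1 letters and the SOX core were in neither window, and were found in 37.4%, 7.2%, 5.2% and 18.7% of all windows. The windows also differed in base composition, with 68.0% GC and 30 CpG dinucleotides for Slit2, and 57.0% GC and 15 CpG for Robo1, against a median window with 52.7% GC and 7 CpG. The Robo1 window belongs to a start inside the annotated gene, so it is not its only possible promoter. In all 9 of the 10 members had a window in the table.

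Each of 2 Slit genes also carries a microRNA of the miR-218 family, which is known to repress Robo1, and their mature sequences are shown because the hairpins were measured on the same arrays. Mir218-1 lies within Slit2 and Mir218-2 within Slit3. Capitals mark the seed, bases 2 to 8.
mmu-miR-218-5p, from both loci: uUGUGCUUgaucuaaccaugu
mmu-miR-218-1-3p, from the Slit2 locus: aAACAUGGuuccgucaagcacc
mmu-miR-218-2-3p, from the Slit3 locus: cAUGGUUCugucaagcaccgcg
The 5p strand is identical from both loci, with seed UGUGCUU, while the 3p strands have different seeds.

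The targeted gene was checked first. Slk had log2 signals of 7.14, 7.21 and 7.20 on knockout arrays 1 to 3, against 8.21, 8.30 and 8.34 on wild-type arrays 1 to 3. All knockout arrays lay below all wild-type arrays, with a log2 fold change of -1.10 (SE 0.06, limma adjusted p = 0.0021). The fall was 2.15-fold, and the knockout mean of 7.18 still lay well above the median gene. The mammary epithelial growth conditions in the labels were set beside 14 luminal markers, which were uneven. The simple-epithelial keratin Krt8 averaged 10.47 in knockout and 10.32 in wild-type cells, and Krt18 averaged 10.62 in knockout and 10.49 in wild-type cells (log2 signal, n = 3 each). Krt7, Gata3, Epcam, Cdh1, Cldn3 and Cldn4 also lay well above the median gene. Their group means ran from 7.16 (Cldn4, knockout) to 8.82 (Gata3, wild-type). Krt19 averaged 3.59 in knockout and 3.51 in wild-type cells, below the median gene. Also below it were Elf5 (3.07 in knockout, 2.98 in wild-type), Ehf (2.56 in knockout, 2.34 in wild-type) and Foxa1 (3.52 in knockout, 3.51 in wild-type). So were Esr1 (4.07 in knockout, 4.29 in wild-type) and Pgr (2.9 in knockout, 2.95 in wild-type).

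In SLK-knockout cells the ligand gene Slit2 and the receptor gene Robo1 fell together, by 1.42-fold and 1.44-fold. No other member passed the threshold, an adjusted p under 0.05 in limma's two-sided test across all genes. Thus 2 of 10 members were called, both lower, where 0.437% of all genes were called, 0.113% lower and 0.325% higher. The median log2 fold change was 0.02 over the members and 0.00 over all genes. On 5 of the 10 members the knockout and wild-type arrays did not overlap, 2 of them higher in knockout cells and 3 lower. Over all genes this held for 16.9%, 8.79% higher and 8.1% lower. An unadjusted p under 0.05 was also seen for 5 members, where it was seen for 10.2% of all genes. With 3 arrays against 3, an exact permutation test of a single gene cannot go below p = 0.10, so the limma fit carries the test.

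**Figure D1:**
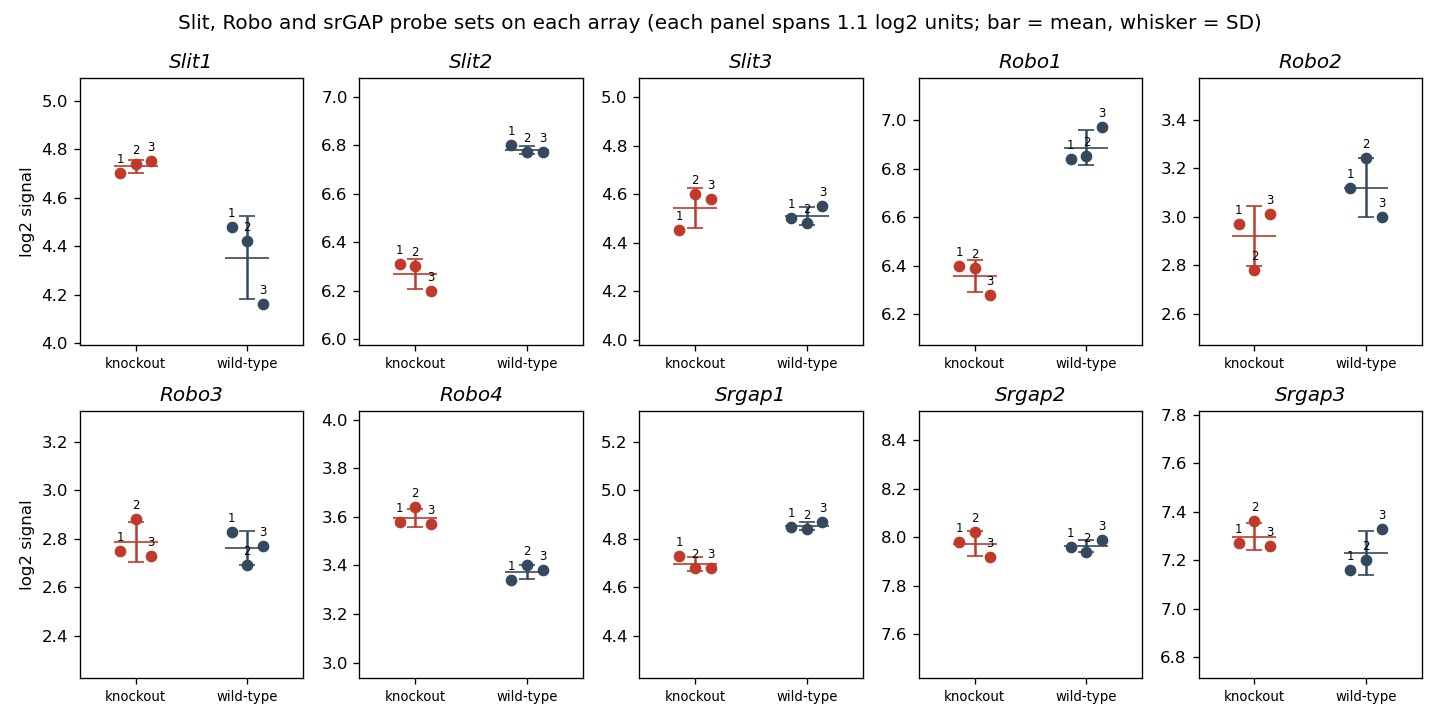
Log2 signal of each of the 10 Slit, Robo and srGAP probe sets on the 3 knockout arrays (left in each panel) and the 3 wild-type arrays (right), with array numbers, the group mean as a bar and the SD as whiskers; every panel spans the same range of log2 units around its own mean. Slit2 and Robo1 sit lower on every knockout array, Slit1 and Robo4 higher, and Srgap2 and Robo3 overlap.

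Among the ligands, Slit2 is the one best known from the mammary gland. Its log2 signals were 6.31, 6.30 and 6.20 on knockout arrays 1 to 3, against 6.80, 6.77 and 6.77 on wild-type arrays 1 to 3. The groups did not overlap: the highest knockout array lay 0.46 log2 units below the lowest wild-type array. Slit2 averaged 6.27 ± 0.06 in knockout and 6.78 ± 0.02 in wild-type cells (log2 signal, SD, n = 3 each), a log2 fold change of -0.51 (SE 0.05, limma adjusted p = 0.0224). The change was larger in size than that of 99.3% of all genes, and its p ranked 42 of 22180. In these bulk samples a smaller share of cells making a transcript and less of it per cell cannot be told apart.

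That call of Slit2 rested on all 6 arrays. Whichever array was left out, the log2 fold change kept its sign and the adjusted p lay between 0.0842 and 0.114, past the threshold in none of the 6 fits. Such fits have fewer arrays, and over all genes they called 16 to 28, against 97 with every array.

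Slit1, the ligand best known from the nervous system, showed the opposite direction without passing the threshold. Its log2 signals were 4.70, 4.74 and 4.75 on knockout arrays 1 to 3, against 4.48, 4.42 and 4.16 on wild-type arrays 1 to 3. The groups did not overlap, and wild-type array 3 stood lowest. Without that array the log2 fold change was 0.28 (limma adjusted p = 0.255). The mean signal of Slit1 was near the median gene, above that of 51.6% of all genes. Slit1 averaged 4.73 ± 0.03 in knockout and 4.36 ± 0.17 in wild-type cells (log2 signal, SD, n = 3 each), with a log2 fold change of 0.37 (95% interval 0.16 to 0.59, limma adjusted p = 0.214). Slit3, the third ligand, had log2 signals of 4.45, 4.60 and 4.58 on the knockout arrays, against 4.50, 4.48 and 4.55 on the wild-type arrays. These overlapped, and the interval of the log2 difference, -0.11 to 0.17, does not reach the size of the Slit2 or the Slit1 change (limma adjusted p = 0.90).

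The microRNA hairpins inside the ligand genes were dimmer and more variable. Mir218-1 averaged 3.13 ± 0.18 in knockout and 3.27 ± 0.24 in wild-type cells (log2 signal, SD, n = 3 each), a log2 fold change of -0.14 with a 95% interval of -0.48 to 0.20 (limma adjusted p = 0.798). Mir218-2 averaged 3.45 ± 0.33 in knockout and 3.75 ± 0.33 in wild-type cells (log2 signal, SD, n = 3 each), a log2 fold change of -0.30 with a 95% interval of -0.82 to 0.21 (limma adjusted p = 0.70). Both pairs of groups overlapped. The interval for Mir218-1 covers no change and comes close to the fall of its host Slit2. A probe set for a hairpin locus does not measure the mature strand.

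Among the receptors, Robo1 is the one best known from mammary epithelium. Its log2 signals were 6.40, 6.39 and 6.28 on knockout arrays 1 to 3, against 6.84, 6.85 and 6.97 on wild-type arrays 1 to 3. The groups were separated by 0.44 log2 units, and knockout array 3 was the lowest array for Robo1, as it was for Slit2. Robo1 averaged 6.36 ± 0.07 in knockout and 6.89 ± 0.07 in wild-type cells (log2 signal, SD, n = 3 each), a log2 fold change of -0.53 (SE 0.06, limma adjusted p = 0.0306). The size of this change exceeded that of 99.4% of all genes, and its p ranked 67.

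As for Slit2, the Robo1 call needed every array, beside the same drop in calls over all genes. With any single array left out the adjusted p lay between 0.111 and 0.131, and the log2 fold change stayed below 0.

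The endothelial receptor Robo4, which stabilises vessels, was slightly higher on every knockout array but did not pass the threshold. Its log2 signals were 3.58, 3.64 and 3.57 on knockout arrays 1 to 3, against 3.34, 3.40 and 3.38 on wild-type arrays 1 to 3. The groups were separated by 0.18 log2 units. The log2 fold change was 0.23 with a 95% interval of 0.11 to 0.35 (limma adjusted p = 0.176). Robo4 was dim, averaging 3.6 in knockout and 3.37 in wild-type cells, below the median gene. With an intensity trend its SE was 0.1 rather than 0.05 (limma adjusted p = 0.38). Over 15 alternative fits its limma adjusted p lay between 0.0764 and 0.423.

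Of the 12 endothelial markers limma called none. An unadjusted p under 0.05 was seen for 4, with 2 higher and 2 lower in knockout cells, where 10.2% of all genes had it. The mean was higher in knockout cells for 7 of 12, beside 11429 of all 22180 genes. The summed log2 signal of the 12 markers ranged from 44.4 to 44.9 on knockout arrays and from 44.1 to 45.2 on wild-type arrays. No endothelial marker averaged above 4.45 in knockout or 4.59 in wild-type cells, both close to the median gene. The defining markers Pecam1 and Cdh5 had log2 fold changes of 0.07 and 0.17, Sox17 the highest at 0.22 and Kdr the lowest at -0.32. Their part in the Robo4 difference was not tested.

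Robo2 and Robo3 had dim probe sets, with group means of 2.76 to 3.12 on the log2 scale. Robo2, another receptor of axons, had log2 signals of 2.97, 2.78 and 3.01 on knockout arrays, against 3.12, 3.24 and 3.0 on wild-type arrays. The groups overlapped narrowly, and the log2 fold change was -0.20 (95% interval -0.42 to 0.01, limma adjusted p = 0.513). Robo3, the divergent receptor that lets commissural axons cross the midline, had log2 signals of 2.75, 2.88 and 2.73 on knockout arrays, against 2.83, 2.69 and 2.77 on wild-type arrays. Here the arrays were interleaved, with a log2 fold change of 0.03 (95% interval -0.13 to 0.18, limma adjusted p = 0.923) whose sign turned when array 2 of either group was left out. A low signal on these arrays does not show that a gene is off.

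**Figure D2:**
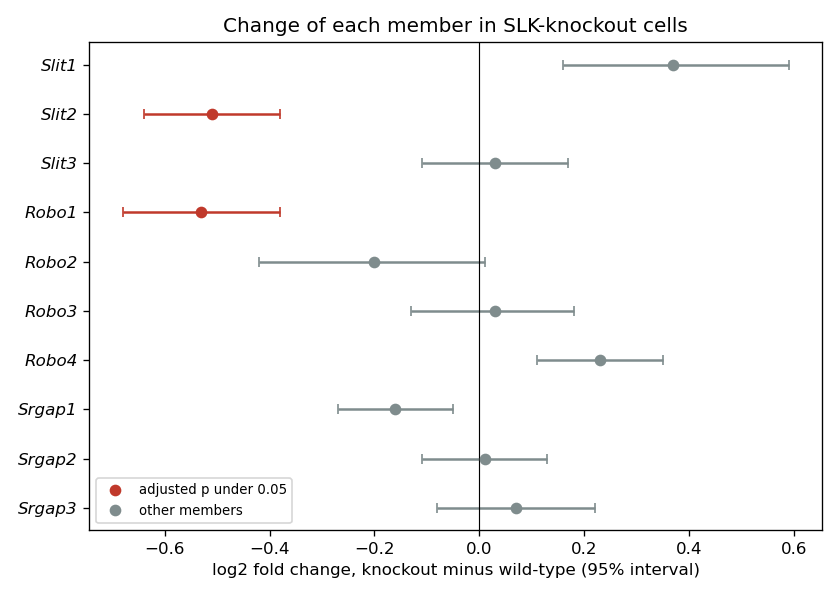
Log2 fold change of each member, knockout minus wild-type, with limma's 95% interval; red points passed the adjusted threshold and grey points did not. Slit2 (-0.51) and Robo1 (-0.53) lie farthest below 0, and Slit1 (0.37) lies farthest above it.

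The srGAPs combine an inverse F-BAR domain, which bends membranes outward, with a GTPase-activating domain and the SH3 domain that binds Robo. None of the 3 passed limma's threshold, where 0.437% of all genes did. An unadjusted p under 0.05 was seen for 1 of them, where 10.2% of all genes had it. That was Srgap1. This gene, whose product was first tied to Slit-Robo signalling through Cdc42, had log2 signals of 4.73, 4.68 and 4.68 on knockout arrays 1 to 3, against 4.85, 4.84 and 4.87 on wild-type arrays 1 to 3. All knockout arrays were lower, by a log2 fold change of -0.16 (95% interval -0.27 to -0.05, limma adjusted p = 0.313). Groups that do not overlap were seen for 16.9% of all genes.

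Srgap2, known for shaping dendritic spines and neuronal migration, had log2 signals of 7.98, 8.02 and 7.92 on knockout arrays, against 7.96, 7.94 and 7.99 on wild-type arrays. The arrays overlapped fully, and the log2 fold change of 0.01 had a 95% interval of -0.11 to 0.13 (limma adjusted p = 0.973), with a sign that turned when array 2 of either group was left out. Srgap3, also called WRP and known to inactivate Rac1, had log2 signals of 7.27, 7.36 and 7.26 on knockout arrays, against 7.16, 7.20 and 7.33 on wild-type arrays. These overlapped too, with a log2 fold change of 0.07 (95% interval -0.08 to 0.22, limma adjusted p = 0.774). For Srgap2 and Srgap3 the intervals exclude a change as large as that of Slit2 or Robo1 in either direction.

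**Figure D3:**
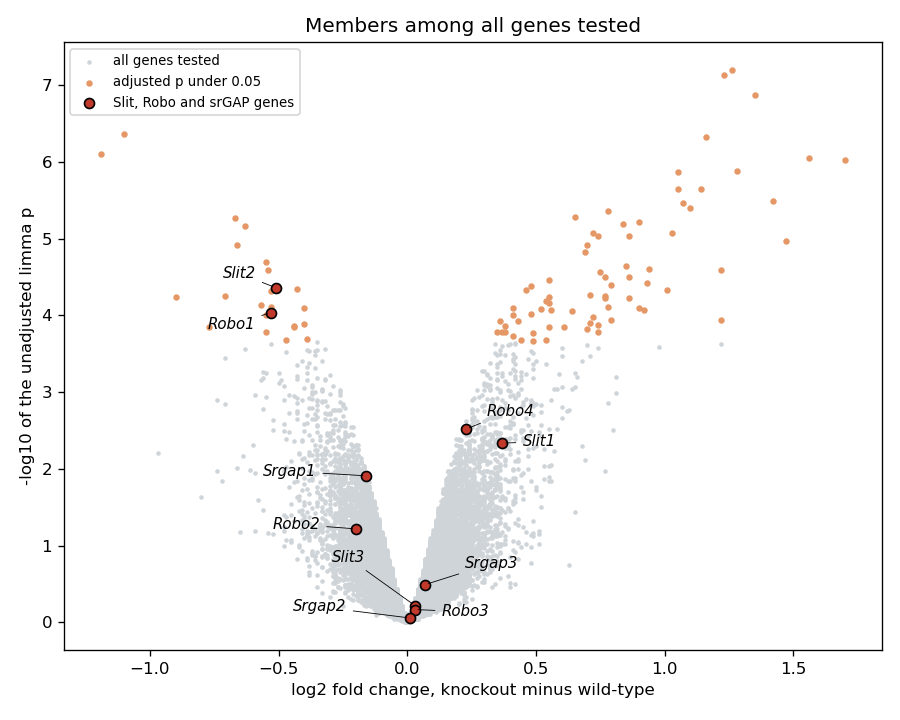
Log2 fold change, knockout minus wild-type, against -log10 of the unadjusted limma p for all 22180 genes (grey), the genes with an adjusted p under 0.05 (orange) and the 10 members (red). Slit2 and Robo1 lie among the called genes on the lower side, and the other 8 members lie within the grey cloud.

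The genes next to Slit2 and Robo1 on their chromosomes were compared, in the gene order of RefSeq's GRCm38.p6 annotation. Lcorl and Pacrgl, the protein-coding genes on either side of Slit2 on chromosome 5, had log2 fold changes of -0.04 (SE 0.06) and -0.09 (SE 0.08). Gbe1, on one side of Robo1 on chromosome 16, had a log2 fold change of 0.01 (SE 0.07). The gene on the other side of Robo1 is Robo2, with a log2 fold change of -0.20 (SE 0.09). None of these 4 neighbours was called (limma adjusted p of 0.898, 0.771, 0.979 and 0.513), where 0.437% of all genes were. An unadjusted p under 0.05 was seen for 0 of the 4, where 10.2% of all genes had it. With only 4 genes, counts of 0 carry little information beside these shares. Robo3 and Robo4 also lie side by side, on chromosome 9.

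The genes whose profile over the 6 arrays was most like that of Slit2, the member with the smallest p, were Esyt3, Palmd and Bmp4. Likeness was the root-mean-square distance after each gene's own mean was subtracted, which was 0.043, 0.044 and 0.044 log2 units. Robo1 came next among all 22180 genes, at 0.049. Esyt3, an extended synaptotagmin, averaged 7.44 in knockout and 7.97 in wild-type cells, and Palmd, palmdelphin, averaged 7.25 in knockout and 7.80 in wild-type cells (log2 signal, n = 3 each). Bmp4, a bone morphogenetic protein, averaged 6.25 in knockout and 6.78 in wild-type cells (log2 signal, n = 3 each). With 2 groups of 3, such a ranking picks genes with a like fold between the groups and is given as a description. These 3 genes were called over all arrays and in none of the 6 fits with an array left out, where the limma adjusted p lay between 0.0627 and 0.137.

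The wider pathway was read from lists of partner genes chosen for their known roles. Among 21 partners of the ligands, 4 had an unadjusted p under 0.05, where 10.2% of all genes did. None passed the adjusted threshold, where 0.437% of all genes did. The mean was higher in knockout cells for 13 and lower for 8, beside 11429 and 10751 of all genes. The median log2 fold change of these partners was 0.01. Heparan sulphate carriers, on which Slit binding to Robo depends, showed small differences: the log2 fold changes were -0.03 for Gpc1, -0.11 for Sdc1, 0.00 for Sdc2, 0.14 for Sdc3 and 0.01 for Sdc4. Dag1, dystroglycan, which binds Slit, had a log2 fold change of 0.04.

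Tll1, a tolloid-like protease whose relative cleaves Slit in Drosophila, stood out by size among the ligand partners. Its log2 signals were 5.22, 5.47 and 5.46 on knockout arrays 1 to 3, against 5.0, 4.72 and 4.74 on wild-type arrays 1 to 3. The groups did not overlap, with a log2 fold change of 0.56 (95% interval 0.31 to 0.81, limma adjusted p = 0.11). Ntn1, netrin 1, had a log2 fold change of 0.28 (limma adjusted p = 0.438), and Sdc3 had an adjusted p of 0.395.

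Among 27 measured effectors and trafficking factors of the receptors, 3 had an unadjusted p under 0.05, where 10.2% of all genes did. None passed the adjusted threshold, where 0.437% of all genes did. The mean was higher in knockout cells for 11 and lower for 16, beside 11429 and 10751 of all genes. The median log2 fold change of these effectors was -0.02. Enah (Mena), an actin regulator of the Ena/VASP family that acts below Robo, had log2 signals of 4.13, 3.90 and 3.92 on knockout arrays, against 3.64, 3.27 and 3.24 on wild-type arrays. The groups did not overlap, with a log2 fold change of 0.60 (95% interval 0.30 to 0.90, limma adjusted p = 0.148). Enah was dim, averaging 3.98 in knockout and 3.38 in wild-type cells, below the median gene. The related Vasp and Evl had log2 fold changes of -0.04 and -0.05. Dock1, an exchange factor for Rac, had a log2 fold change of 0.34 (limma adjusted p = 0.217).

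Ndfip2, an adaptor of Nedd4-type ubiquitin ligases that sort Robo1 for degradation, was lower on every knockout array. Its log2 signals were 7.17, 7.28 and 7.21 on knockout arrays, against 7.48, 7.42 and 7.46 on wild-type arrays. The log2 fold change was -0.24 (95% interval -0.36 to -0.11, limma adjusted p = 0.183). Its relative Ndfip1 had 0.04, the ligase Nedd4 0.04 and Prrg4, a membrane protein that lowers Robo1 at the cell surface, -0.04 (log2 fold change). The GTPases on which srGAPs act had log2 fold changes within 0.03 of 0: -0.03 for Rhoa, 0.00 for Rac1 and 0.00 for Cdc42. The kinases Abl1 and Abl2 had -0.09 and -0.02 (log2 fold change).

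**Figure D4:**
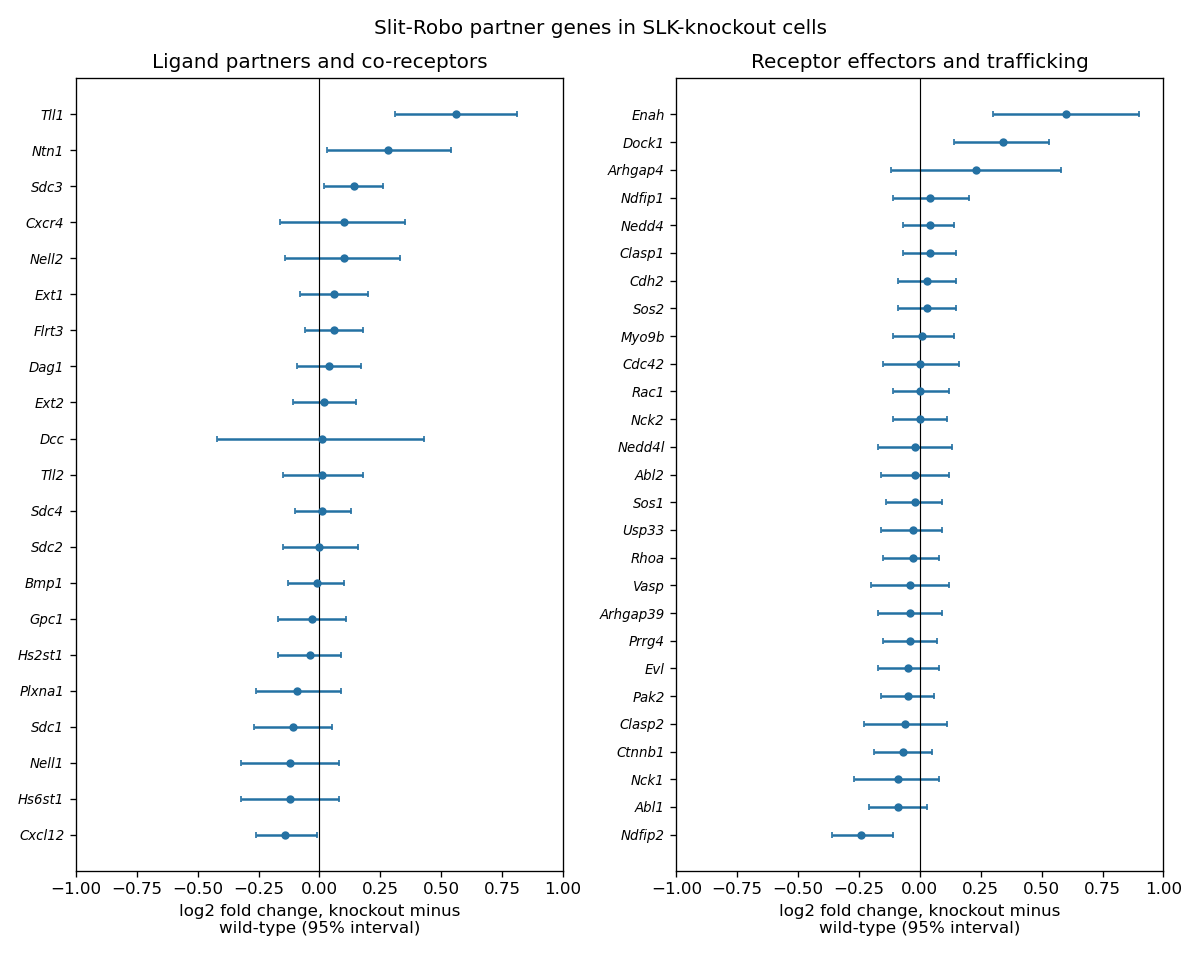
Log2 fold change of the 21 ligand partners (left) and 27 receptor effectors (right), knockout minus wild-type, with limma's 95% interval. Tll1 (0.56) and Enah (0.60) lie farthest above 0 and Ndfip2 (-0.24) farthest below it, and no gene passed the adjusted threshold.

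Markers of the cell layers and cell types in which Slits and Robos are known were compared on the same arrays. Of 14 luminal markers 1 passed the threshold, Cdh1 (E-cadherin), lower with a log2 fold change of -0.43 (limma adjusted p = 0.0224). The highest value was that of Ehf, 0.22. Epcam had a log2 fold change of -0.35 (limma adjusted p = 0.0826). An unadjusted p under 0.05 was seen for 7 of the 14, with 4 lower and 3 higher in knockout cells, and the groups did not overlap for 9 of the 14, where all genes gave 10.2% and 16.9%. Of 9 basal markers 1 passed the threshold, Krt14, the basal keratin, lower with a log2 fold change of -0.66 (limma adjusted p = 0.00963). Krt5, also listed as a basal marker, had no probe set annotated to it alone. Mylk had the highest value, 0.42. Acta2, smooth muscle actin, was lower on every knockout array, with a log2 fold change of -0.47 (limma adjusted p = 0.0552). Krt14 and Acta2 were bright, with group means from 7.28 (Acta2, knockout) to 8.38 (Krt14, wild-type). The other measured basal markers were dimmer, with group means from 3.01 (Trp63, knockout) to 4.63 (Myh11, knockout), against 4.39 for the median gene. In the basal list 3 of 9 had an unadjusted p under 0.05 and for 3 the groups did not overlap, beside the same 10.2% and 16.9% of all genes. With 1 array left out the adjusted p lay between 0.0984 and 0.127 for Cdh1 and between 0.0453 and 0.0725 for Krt14, past the threshold in 0 and 1 of the 6 fits. With the mean of its probe sets Cdh1 had an adjusted p of 0.453. The summed log2 signal of the basal markers ranged from 42.4 to 44.2 on knockout arrays and from 43.7 to 45.2 on wild-type arrays. That of the luminal markers ranged from 87.1 to 87.9 on knockout arrays and from 87.5 to 88.5 on wild-type arrays.

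Of 10 fibroblast markers 1 passed the threshold, Pdgfrb, lower with a log2 fold change of -0.67 (limma adjusted p = 0.00664). The highest value was that of Dcn, 0.43. Pdgfrb lost the call without wild-type array 2 (limma adjusted p = 0.0503). Postn had a log2 fold change of 0.37, Col1a1 one of -0.33 and Col1a2 one of -0.19. An unadjusted p under 0.05 was seen for 6 of the 10 fibroblast markers, with 4 lower and 2 higher, and the groups did not overlap for 7 of the 10, again beside 10.2% and 16.9% of all genes. The summed fibroblast signal ranged from 54.3 to 54.8 on knockout arrays and from 54.8 to 55.3 on wild-type arrays (log2 units). Of 12 neuronal markers limma called none, 0 had an unadjusted p under 0.05, and their log2 fold changes ran from -0.15 for Ina to 0.18 for Snap25. Neuronal sums ranged from 46.8 to 49.5 on knockout arrays and from 46.4 to 48.1 on wild-type arrays (log2 units). The part of these markers in the Slit2 and Robo1 differences was not tested.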

How the data were processed

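Biotin-labelled total RNA was measured on 6 one-colour arrays, 3 knockout and 3 wild-type, grouped by title. The deposited table holds log2 values for 41345 probe sets, made by the authors with Affymetrix Expression Console 1.4.1.46, per the submitters' processing notes. How background, normalization and summarisation were handled, and the log base, is not stated in the labels. The values were taken as log2, since the highest, 12.4, exceeds the natural log of a 16-bit limit (11.1). Such values compress the changes of dim genes. No values were normalized further.

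The platform's annotation named 23521 probe sets with 1 symbol, and 1814 with several and 16010 not listed there were left out. The brightest probe set per symbol gave 22180 genes. Knockout was compared with wild-type in limma 3.58.1 (R 4.3.3; lmFit, eBayes, no covariate, no filter), with Benjamini-Hochberg adjustment over all genes. Standard errors and 95% intervals are limma's, for single genes.

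Members and gene lists were chosen with earlier results of these data known, so no test over a list was made. Genes named are the members, Slk, the partners with the 3 smallest p per list, and markers that passed or were extreme; other partners, marker genes, neighbours and the miR-218 loci were added after values were seen. Listed genes without a single-symbol probe set were not analysed here. Alternatives were array weights, a replicate block, an intensity trend alone or with robust estimation, quantile normalization, centring on array medians, dropping the dimmest 30% or 50% of genes, averaging or separating a gene's probe sets, and leaving out each array.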

Additional observations from a re-analysis of the deposited data

How the results depend on the processing

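Slit2 and Robo1 stayed the only members called in 9 of 16 alternatives. Among these 9, averaging or separating a gene's probe sets could not change the members' own values, as each member had 1 probe set. Over all 16 alternatives log2 fold changes ran from -0.53 to -0.47 for Slit2 and from -0.55 to -0.49 for Robo1. Members called numbered 0 with the replicate block (adjusted p = 0.16 for Slit2 and 0.229 for Robo1), which also ended the calls of Cdh1 (0.189), Krt14 (0.11), Pdgfrb (0.11), Esyt3 (0.155), Palmd (0.139) and Bmp4 (0.15), and 0 in each fit with 1 array left out, which leaves fewer samples. With 1 array left out the log2 fold change of Robo3 ranged from -0.02 to 0.06 and that of Srgap2 from -0.01 to 0.04, below 0 without array 2 of either group (-0.02 and -0.01 for Robo3, -0.01 in both cases for Srgap2). The dim genes Robo2 and Robo3 were not tested without the dimmest 30% of genes, nor those and Robo4 without the dimmest 50%.

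Over all genes 97 were called, against 206 and 341 without the dimmest 30% and 50% of genes (fewer genes tested), 441 with an intensity trend, 443 with trend and robust estimation, 6 with the replicate block, and 16 to 28 with 1 array left out. Pathway genes called numbered 0 as reported, 2 without the dimmest 50% (Tll1 and Ndfip2), and 4 with an intensity trend and 4 with trend and robust estimation (Tll1, Enah, Ndfip2 and Dock1). The cause was not tested. Deviations from the group means correlated across genes with r of 0.044, 0.017 and -0.066 for same-numbered arrays. Arrays of different number gave r from -0.117 to 0.106. No label ties an array to a passage, clone or line. With 3 arrays per group, these values cannot decide whether the samples were paired. The repeats for called marker genes and for the genes most like Slit2 were added after seeing the data, and none of them reversed.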
